A study of Homo sapiens with 16 samples.

Results

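The 10 genes described here encode the MHC class II antigen presentation machinery and its master regulator. They were chosen by symbol, as the rows of the deposited count table named HLA-DRA, HLA-DRB1, HLA-DPA1, HLA-DPB1, HLA-DQA1, HLA-DQB1, HLA-DMA, HLA-DMB, CD74 and CIITA, among 60664 genes in all. All 10 had a row, and 9 of them held enough counts to be tested among 15301 tested genes, HLA-DMB being the exception. RNA was sequenced from macrophages made from THP-1, a human monocytic leukaemia line, so every library carries the class II alleles of a single genome. All cells of all groups, the controls included, first received the phorbol ester PMA at 100 ng/mL for 48 hours to become unpolarized macrophages, called M0. The genotype of all groups is labelled WT.

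The 16 libraries formed 4 groups of 4 in a 2 by 2 design. M0 received nothing more. M0+iMSC was co-cultured with iMSCs placed in the upper chamber of Transwell inserts, so that both cell types were separated by a membrane. M0+LPS/IFNg received 100 ng/mL lipopolysaccharide (LPS) of P. gingivalis and 20 ng/mL interferon-gamma (IFN-γ) for 48 hours, and M0+LPS/IFNg+iMSC received both treatments. The count columns of both co-culture groups carry "CM" in their names, which the labels do not explain. Whether replicates were separate cultures is not in the labels, and the p-values below therefore reflect only library-to-library spread, possibly technical.

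Class II molecules are pairs of an alpha and a beta chain (HLA-DR, HLA-DP and HLA-DQ) that show peptides from endosomes to CD4 T cells. The invariant chain CD74 occupies the groove until endosomal proteases trim it, and HLA-DM then exchanges the remaining fragment for a peptide. CIITA does not bind DNA itself. It is recruited by RFX, NF-Y and CREB proteins on the X and Y boxes of class II promoters, and in macrophages IFN-γ switches CIITA on through JAK kinases and IRF1.

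The X and Y boxes could be read in the RefSeq promoter windows of several members and are shown because they are the DNA through which CIITA acts on its targets. Of 10 members 8 had a window (250 bases before to 50 bases after the start, build GRCh38.p14), and HLA-DRA and CIITA are named only. Each line gives 75 bases, 5′ to 3′ on the gene's strand. Capitals mark the X motif, searched as AGNNAC, then any base, then GATG, and ATTGG or its reverse complement CCAAT, searched as the Y motif. Both were searched on both strands, do not overlap each other, and were chosen after the sequences had been seen.
HLA-DRB1 (chr6:32589865-32589939, minus strand): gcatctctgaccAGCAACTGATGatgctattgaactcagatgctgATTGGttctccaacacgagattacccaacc
HLA-DQB1 (chr6:32666716-32666790, minus strand): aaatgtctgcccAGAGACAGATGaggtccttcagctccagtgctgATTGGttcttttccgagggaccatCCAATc
HLA-DMA (chr6:32953148-32953222, minus strand): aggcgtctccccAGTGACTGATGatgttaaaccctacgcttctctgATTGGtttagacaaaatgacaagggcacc
HLA-DMB (chr6:32941054-32941128, minus strand): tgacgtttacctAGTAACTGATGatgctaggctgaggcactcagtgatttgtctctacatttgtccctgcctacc
HLA-DQA1 (chr6:32637286-32637360, plus strand): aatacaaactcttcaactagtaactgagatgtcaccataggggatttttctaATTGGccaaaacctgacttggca
HLA-DPB1 (chr6:33075863-33075937, plus strand): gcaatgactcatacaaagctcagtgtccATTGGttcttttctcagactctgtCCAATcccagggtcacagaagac
CD74 (chr5:150412941-150413015, minus strand): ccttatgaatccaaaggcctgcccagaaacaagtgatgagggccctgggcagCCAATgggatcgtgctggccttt

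HLA-DRB1, HLA-DQB1 and HLA-DMA held the X motif 79, 121 and 113 bases before the start, followed by ATTGG after 22, 22 and 23 bases. HLA-DMB held the X motif 88 bases before the start, without ATTGG or CCAAT at that spacing. The 1 match to the Y motif in its window came 55 bases after X, 22 bases before the start and outside the bases printed. The windows of HLA-DQA1, HLA-DPB1 and CD74 held the Y motif and not the letters searched as X, and both windows of HLA-DPA1 held neither set of letters. The X motif was present in 0.817% of 35116 promoter windows and the Y motif in 34.6%. X followed by Y after 22 to 23 bases was present in 5 windows (0.0142%), those of HLA-DRB1, HLA-DRB5, HLA-DQB1, HLA-DMA and LOC105371332. The spacing searched is the one found in HLA-DRB1, HLA-DQB1 and HLA-DMA. Their place among the 5 was thus fixed in advance, and the share does not measure specificity. A match describes letters only, and no match says only that these letters are not in the window.

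The libraries held 17336637 to 24368753 counts. Values are CPM, counts relative to the library's total after TMM scaling, and a gene is called changed where the Benjamini-Hochberg adjusted p of edgeR's quasi-likelihood test over all tested genes is under 0.05. Replicate 4 of M0+LPS/IFNg stood apart from the other 3 libraries of its group. It differed from them at least 2-fold in 586 of 8816 genes, against 2 to 51 genes for each of the other 15 libraries. Comparisons that use it are therefore given with and without it. Macrophage markers were present in all groups, with CD14, CSF1R, SPI1 and ITGAM at 56.5 CPM or more on average, while CD68 and MRC1 held at most 0.401 and 0.210 CPM in any library. The 8 macrophage markers summed to 1074 to 1162 CPM at rest alone, 1083 to 1150 at rest with iMSCs, 1142 to 1257 in 3 stimulated libraries, 2344 in replicate 4 and 3201 to 3353 in stimulated co-cultures. CD14 held most of the last sum, at 1899 CPM on average. The 6 dendritic cell markers summed to 7.97 to 10.2 CPM at rest alone, 3.83 to 7.44 at rest with iMSCs, 31.2 to 32.8 in 3 stimulated libraries, 17.6 in replicate 4 and 13.2 to 18.8 in stimulated co-cultures. Most of this was CD1C, with group means of 6.57, 4.16, 22.1 and 10.7 CPM, while FCER1A held 0 counts in all libraries and CLEC9A 1. The 4 T cell markers held 0 counts in all but 2 counts of M0+LPS/IFNg+iMSC, and the 5 B cell markers summed to at most 2.77 CPM, with MS4A1 at 0 counts in all libraries. Of 8 mesenchymal markers, COL1A2 held 0 counts in both co-culture groups, and THY1 at most 2. Their summed level at rest was 29.2 to 30.7 CPM alone and 306 to 327 with iMSCs, of which COL6A3 held 282 on average. After stimulation it was 8.01 to 16.4 CPM alone and 30.2 to 32.8 with iMSCs, of which DCN held 18.8. COL6A3 and PDGFRB were lower with iMSCs there, at 0.626 and 1.35 CPM on average against 4.26 and 2.35. COL1A1 and LUM were higher, at 9.18 and 1.30 against 7.26 and 0.0255. The part of these transcripts in the results below was not tested.

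Class II transcripts were scarce in resting macrophages and were not induced as one block. Stimulation raised every tested member, whereas co-culture at rest raised HLA-DRB1, HLA-DQB1 and HLA-DMA. CIITA, HLA-DRA and HLA-DQA1 held at most 5, 4 and 1 counts in any resting library. They were not called in co-culture at rest, where so few counts could hide a change. Co-culture under stimulation lowered CIITA, HLA-DRA, HLA-DQA1 and HLA-DPB1, while HLA-DRB1, HLA-DMA and CD74 kept levels within or above those of 3 of the 4 stimulated libraries. In these bulk samples fewer cells with a transcript and less of it per cell cannot be told apart.

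**Figure D1:**
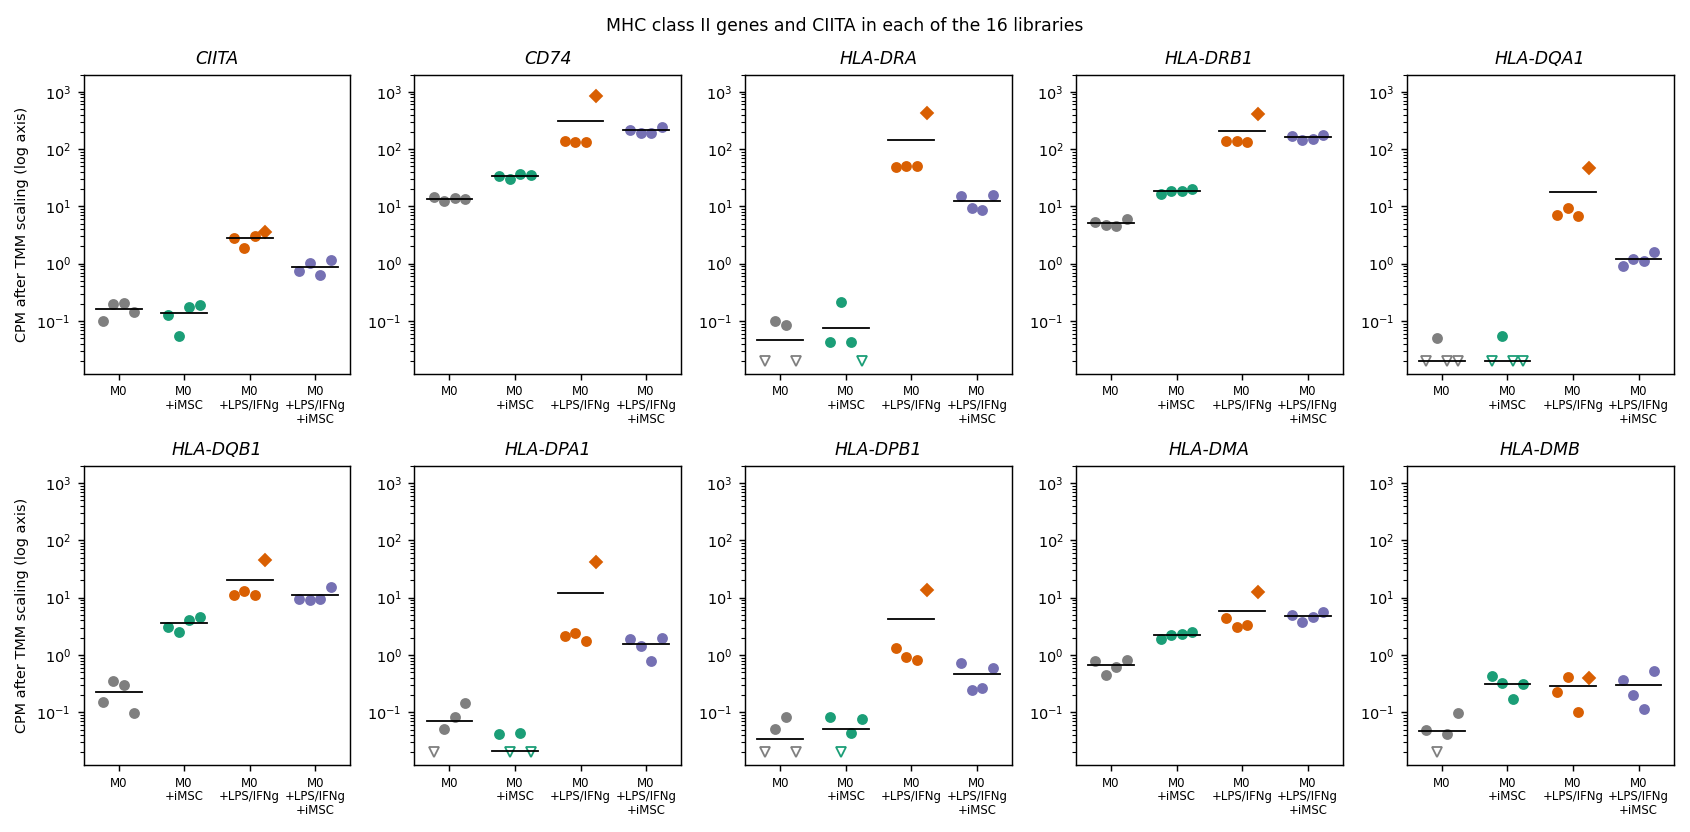
Level of each gene in each of the 16 libraries, as CPM after TMM scaling on a log axis, with the 4 replicates of a group from left to right. Bars are group means, open triangles are libraries with 0 counts drawn at the foot of the axis, and diamonds are replicate 4 of M0+LPS/IFNg, which reached 424 CPM for HLA-DRA against 48.9 to 51.5 in the other stimulated libraries.

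Stimulation, M0+LPS/IFNg minus M0, addressed what LPS and IFN-γ do to resting macrophages. All 9 tested members rose, and 9 rose again without replicate 4, where 29.1% of all tested genes were called higher (29.7% without replicate 4). The count of 9 is not support for a common rise, since HLA-DRA, HLA-DPA1, HLA-DPB1, HLA-DQA1 and CIITA passed the filter on low counts through stimulated libraries only. The median change of the 9 was 6.45 on the log2 scale (4.72 without replicate 4), against 0.01 over all tested genes.

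Co-culture at rest, M0+iMSC minus M0, asked what iMSCs do to unstimulated macrophages. Of the 9 members 3 rose, HLA-DRB1, HLA-DQB1 and HLA-DMA, a share near the background of 36.2% of tested genes called higher. CD74 joined them without replicate 4 of M0+LPS/IFNg, where 38.5% of tested genes were called higher. That library is in neither group of this comparison, but all 4 groups share one estimate of a gene's spread.

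Co-culture under stimulation, M0+LPS/IFNg+iMSC minus M0+LPS/IFNg, asked what iMSCs do while the macrophages are being activated. CIITA, HLA-DRA, HLA-DQA1, HLA-DPB1 and HLA-DPA1 fell, 5 of 9, with 36.3% of all tested genes called lower. These 5 are also the members that passed the filter on low counts through stimulated libraries only. HLA-DPB1 reached its cutoff in 4 libraries of M0+LPS/IFNg and 2 of M0+LPS/IFNg+iMSC. The count of 5 is therefore not support for a common fall. All 9 fitted changes were below 0, with a median of -1.67 against 0.03 over all tested genes. Without replicate 4 the picture split, with 4 members lower (HLA-DPA1 no longer among them) and 3 higher, HLA-DRB1, HLA-DMA and CD74, where 37.3% of tested genes were called lower and 40.3% higher. The median was then -0.49. Between the same groups the summed dendritic cell markers went from 31.2 to 32.8 CPM (17.6 in replicate 4) to 13.2 to 18.8, and the summed macrophage markers from 1142 to 1257 CPM (2344 in replicate 4) to 3201 to 3353. Among the dendritic cell markers CD1C and CD1A averaged 22.1 and 3.60 CPM with stimulation and 10.7 and 2.12 with iMSCs added. CLEC10A went the other way, from 2.81 CPM on average (1.37 to 6.69) to 4.45 (3.51 to 5.42). The part of either summed shift in these changes was not tested.

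**Figure D2:**
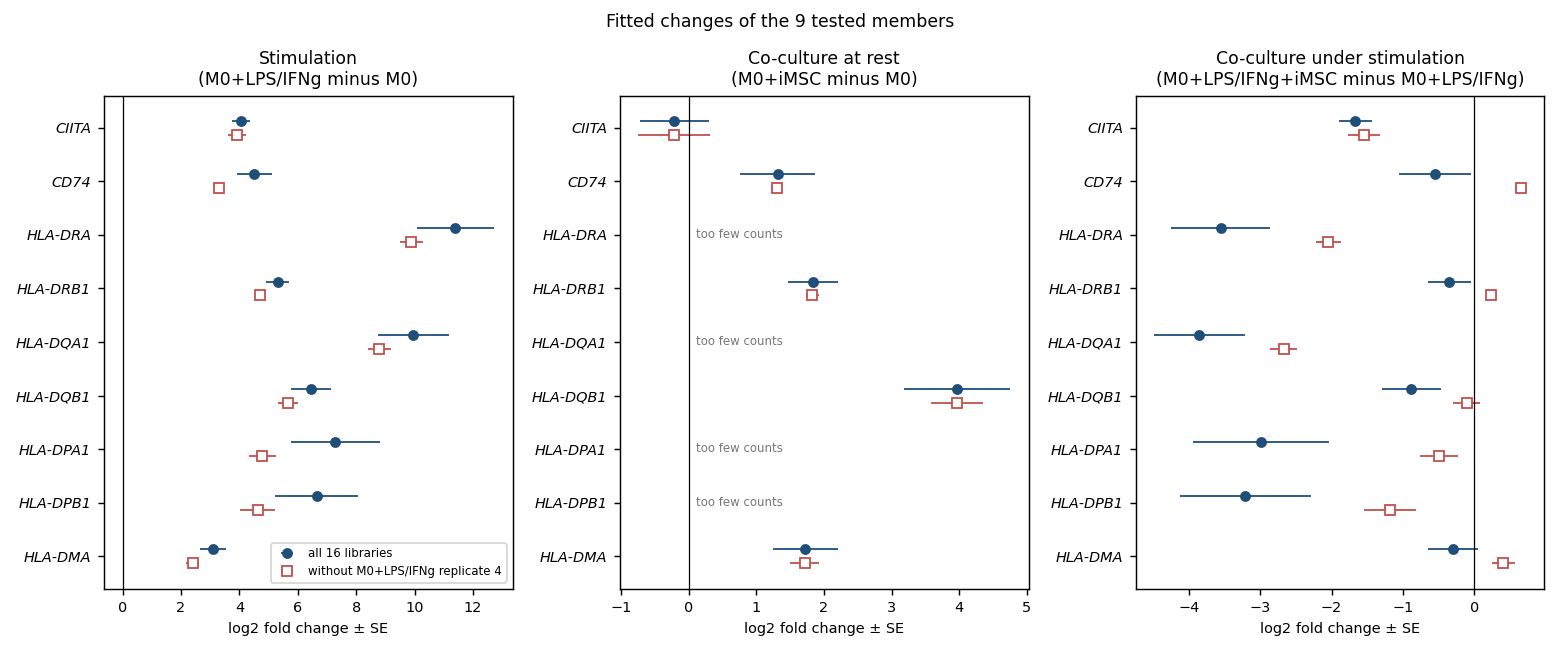
Fitted log2 fold change ± SE of the 9 tested members in 3 comparisons, from all 16 libraries (filled circles) and without replicate 4 of M0+LPS/IFNg (open squares). At rest HLA-DRB1, HLA-DQB1, HLA-DMA and CD74 lie to the right of 0. CIITA lies at -0.21 ± 0.51 there, from 14 counts in all of M0 and 13 in all of M0+iMSC. Under stimulation CD74 moves from -0.55 to 0.65 when the library is left out. At rest HLA-DRA, HLA-DQA1, HLA-DPA1 and HLA-DPB1 have too few counts in both groups and are not drawn.

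CIITA (ENSG00000179583, chromosome 16, 10866222 to 10943021, plus strand, GRCh38.p13) encodes the class II transactivator. It was barely detected at rest, with 0.10, 0.20, 0.21 and 0.15 CPM in M0 and 0.13, 0.05, 0.17 and 0.19 in M0+iMSC, or 14 and 13 counts in all. Stimulated libraries held 2.86, 1.87, 3.01 and 3.57 CPM, and stimulated co-cultures 0.74, 1.02, 0.64 and 1.17. The resting groups overlapped each other, both stimulated groups lay above them, and every stimulated co-culture lay below every stimulated library without iMSCs.

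CIITA rose by 4.04 ± 0.31 (SE) on the log2 scale with stimulation, 16.5-fold (edgeR adjusted p = 7.57e-09; 15.1-fold without replicate 4). In co-culture at rest its change was -0.21 ± 0.51 (edgeR adjusted p = 0.735). Under stimulation it was 3.18-fold lower with iMSCs (log2 change -1.67 ± 0.23, edgeR adjusted p = 4.06e-06), and 2.92-fold lower without replicate 4. CIITA was also the member that replicate 4 moved least, at 1.39 times the mean of the other 3 stimulated libraries. In stimulated co-culture it remained 5.19-fold above M0 (edgeR adjusted p = 1.14e-05). The order of the levels was thus both resting groups, not separable from each other, then stimulated co-culture, then stimulation alone. CIITA overlaps DEXI on the opposite strand over 13578 bases, and since the use of strand in counting is unknown, reads of both cannot be told apart there.

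CD74 (ENSG00000019582, chromosome 5, 150400041 to 150412969, minus strand) encodes the invariant chain. Its M0 libraries held 14.8, 12.5, 13.8 and 13.6 CPM and its M0+iMSC libraries 33.3, 30.5, 36.4 and 35.3. With stimulation it reached 138, 135, 133 and 835 CPM, and in stimulated co-culture 218, 193, 192 and 246. The lowest co-culture library at rest held more than double the highest M0 library, and the 4 stimulated co-cultures lay above 3 stimulated libraries and below replicate 4.

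For CD74 the rise with stimulation was 4.50 ± 0.60 on the log2 scale (edgeR adjusted p = 2.86e-05), and 3.31 ± 0.09 without replicate 4. Co-culture at rest gave a change of 1.31 ± 0.56 with an edgeR adjusted p of 0.0509, which missed the threshold although the groups did not overlap. Without replicate 4 the same change had an SE of 0.09 and an edgeR adjusted p of 4.11e-11. Under stimulation the co-culture change was -0.55 ± 0.51 (edgeR adjusted p = 0.344) with all libraries and a rise of 0.65 ± 0.07 (edgeR adjusted p = 1.34e-07) without replicate 4, so that 1 library set its sign. CD74, with 46077 counts in all, overlaps TCOF1, with 18276, on the opposite strand over 268 bases. Reads of both cannot be told apart there, since the use of strand in counting is unknown.

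HLA-DRB1 (ENSG00000196126, chromosome 6, 32578769 to 32589848, minus strand) encodes the polymorphic beta chain of HLA-DR. It was the member with the highest level per length beside CD74 in M0, at 4.21 ± 0.49 CPM per kb of exon (SD, n = 4), against 4.42 ± 0.31 for CD74. Its libraries held 5.33, 4.81, 4.61 and 5.95 CPM in M0 and 16.3, 18.6, 18.2 and 20.5 in M0+iMSC. Stimulated libraries held 137, 137, 134 and 411 CPM, and stimulated co-cultures 170, 145, 152 and 176. Every M0+iMSC library lay above every M0 library, and every stimulated co-culture lay above replicates 1 to 3 of M0+LPS/IFNg and below replicate 4.

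Stimulation raised HLA-DRB1 by 5.31 ± 0.39 on the log2 scale (edgeR adjusted p = 7.93e-08; 4.72 ± 0.09 without replicate 4). Co-culture at rest raised it 3.56-fold (log2 change 1.83 ± 0.37, edgeR adjusted p = 0.00061). Under stimulation the co-culture change was -0.35 ± 0.30 (edgeR adjusted p = 0.313), 0.13 with library totals in place of TMM factors, and 0.24 ± 0.07 (edgeR adjusted p = 0.00321) without replicate 4. HLA-DRB1 has a close relative, HLA-DRB5, and no source used here says how reads shared by both were counted. HLA-DRB5 averaged 0.831 CPM at rest and 2.68 with iMSCs. Its stimulated mean was 29.3 CPM without replicate 4, which itself held 141, against 30.7 with stimulation and iMSCs.

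HLA-DRA (ENSG00000204287, chromosome 6, 32439878 to 32445046, plus strand) encodes the alpha chain that pairs with HLA-DRB1. It was all but silent at rest, with 0, 2, 2 and 0 counts in M0 and 1, 4, 1 and 0 counts in M0+iMSC. Stimulated libraries held 48.9, 51.5, 49.7 and 424 CPM, and stimulated co-cultures 15.3, 9.43, 8.74 and 15.5. All stimulated co-cultures lay below all stimulated libraries and far above all resting ones.

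By summed counts per effective library size HLA-DRA was 2908 times higher with stimulation than in M0 (exact 95% interval 1136 to 10676, Clopper-Pearson), and 1058 times higher (413 to 3885) without replicate 4. Such intervals cover counting error only. Co-culture at rest gave a ratio of 1.39 with an interval of 0.329 to 6.69, so that a change of the size seen for HLA-DRB1 was not excluded at this depth. Co-culture under stimulation lowered HLA-DRA 11.8-fold (log2 change -3.56 ± 0.70, edgeR adjusted p = 0.000427), and 4.13-fold without replicate 4 (-2.05 ± 0.18, edgeR adjusted p = 5.06e-08). In stimulated co-culture it was still 252 times the M0 level (interval 98.2 to 927).

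The alpha and beta chains of HLA-DR therefore parted in co-culture. The ratio of HLA-DRA to HLA-DRB1 counts, each per kb of exon, does not depend on library scaling, and was examined after these values had been seen, so no test is given. It was 0.354, 0.373, 0.370 and 1.03 in the stimulated libraries and 0.0895, 0.0647, 0.0572 and 0.0877 in the stimulated co-cultures. The groups did not overlap, and the geometric mean was 6.45-fold lower with iMSCs (4.98-fold without replicate 4). In resting libraries the ratio did not exceed 0.0207.

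HLA-DQB1 (ENSG00000179344, chromosome 6, 32659467 to 32668383, minus strand), the beta chain of HLA-DQ, had the largest rise among the 3 members called in co-culture at rest. It held 0.149, 0.351, 0.294 and 0.0968 CPM in M0 and 3.07, 2.48, 4.09 and 4.60 in M0+iMSC, without overlap. Stimulated libraries held 11.1, 12.9, 11.1 and 45.7 CPM, and stimulated co-cultures 9.65, 9.10, 9.46 and 15.7. The last 2 groups overlapped.

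Co-culture at rest raised HLA-DQB1 by 3.97 ± 0.78 on the log2 scale, 15.6-fold (edgeR adjusted p = 0.000443), from 19 counts in all of M0 to 333 in all of M0+iMSC. Stimulation raised it by 6.45 ± 0.68 (edgeR adjusted p = 2.36e-06; 5.67 ± 0.33 without replicate 4). Under stimulation the co-culture change was -0.88 ± 0.41 (edgeR adjusted p = 0.0697), and -0.10 ± 0.19 (edgeR adjusted p = 0.628) without replicate 4.

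HLA-DQA1 (ENSG00000196735, chromosome 6, 32628179 to 32647062, plus strand), the alpha partner of HLA-DQB1, had 1 count in all of M0 and 1 in all of M0+iMSC, both under the floor of 3 counts over a group, so no ratio is given between those groups. Stimulated libraries held 7.14, 9.18, 6.87 and 47.4 CPM, and stimulated co-cultures 0.919, 1.22, 1.13 and 1.61. Every stimulated co-culture lay below every stimulated library. Over the single count of M0 the stimulated level gave a ratio of 1441 with a counting interval of 258 to 56952, and of 654 (117 to 25909) without replicate 4.

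Co-culture under stimulation lowered HLA-DQA1 14.4-fold (log2 change -3.85 ± 0.63, edgeR adjusted p = 7.97e-05), and 6.37-fold without replicate 4 (-2.67 ± 0.19, edgeR adjusted p = 1.72e-11). Per kb of exon, HLA-DQA1 counts over HLA-DQB1 counts ran from 0.647 to 1.08 in the stimulated libraries (to 0.745 without replicate 4) and from 0.0994 to 0.140 in the stimulated co-cultures, a geometric mean 6.59-fold lower (5.88-fold without replicate 4). HLA-DQ thus showed the same parting of alpha and beta chain as HLA-DR, also described with no test.

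**Figure D3:**
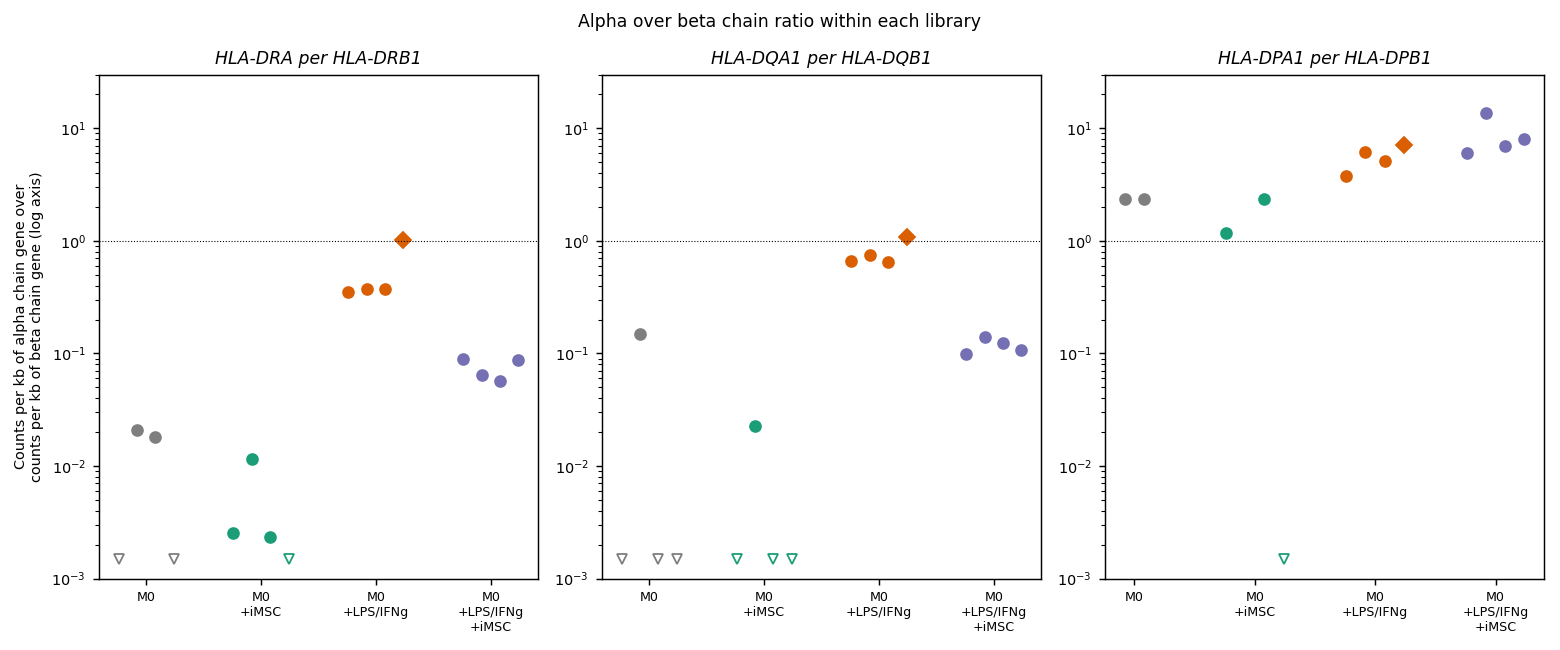
Counts per kb of the alpha chain gene over counts per kb of the beta chain gene within each library, on a log axis. Open triangles are ratios of 0, diamonds are replicate 4 of M0+LPS/IFNg, libraries with 0 counts of the beta chain gene are left out, and the dotted line marks equal levels; for HLA-DR and HLA-DQ the stimulated co-cultures lie below all stimulated libraries, and for HLA-DP both groups overlap.

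HLA-DPA1 (ENSG00000231389, chromosome 6, 33064569 to 33080775, minus strand) and HLA-DPB1 (ENSG00000223865, chromosome 6, 33075990 to 33089696, plus strand) encode the chains of HLA-DP and overlap each other on opposite strands over 4786 bases, so reads from both cannot be told apart there. HLA-DPA1 had 6 counts in M0 and 2 in M0+iMSC, and HLA-DPB1 had 3 and 5. Stimulated libraries held 2.11, 2.44, 1.76 and 41.7 CPM of HLA-DPA1, and stimulated co-cultures 1.88, 1.43, 0.788 and 1.99. For HLA-DPB1 the stimulated libraries held 1.31, 0.934, 0.803 and 13.8 CPM and the stimulated co-cultures 0.735, 0.245, 0.263 and 0.584. Both genes were at their highest in replicate 4, at 19.8 and 13.6 times the mean of the other 3, the 2 largest such ratios among the 10 genes.

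By summed counts HLA-DPA1 was 160 times higher with stimulation than in M0 (interval 73.4 to 438), and 29.6 times higher (13.2 to 82.2) without replicate 4. For HLA-DPB1 the ratio was 113 (38.2 to 549), and 28.3 (9.22 to 141) without replicate 4. Co-culture under stimulation lowered HLA-DPB1 by a log2 change of -3.21 ± 0.92 (edgeR adjusted p = 0.00589), and of -1.18 ± 0.36 (edgeR adjusted p = 0.00556) without replicate 4. The call for HLA-DPA1 rested on that library, with -2.99 ± 0.95 (edgeR adjusted p = 0.0119) with it and -0.49 ± 0.26 (edgeR adjusted p = 0.0955) without it. The ratio of HLA-DPA1 to HLA-DPB1 per kb of exon was 3.77 to 7.10 in stimulated libraries (to 6.12 without replicate 4) and 6.00 to 13.7 in stimulated co-cultures, which overlapped.

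HLA-DMA (ENSG00000204257, chromosome 6, 32948613 to 32969094, minus strand) encodes the alpha chain of the peptide exchanger HLA-DM. It held 0.797, 0.451, 0.629 and 0.823 CPM in M0 and 1.89, 2.21, 2.28 and 2.55 in M0+iMSC. Stimulated libraries held 4.40, 3.06, 3.31 and 12.8 CPM, and stimulated co-cultures 5.05, 3.84, 4.62 and 5.55. The resting groups did not overlap and the stimulated groups did.

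Co-culture at rest raised HLA-DMA 3.30-fold (log2 change 1.72 ± 0.48, edgeR adjusted p = 0.00509), and stimulation raised it 8.60-fold (3.10 ± 0.45, edgeR adjusted p = 2.78e-05; 5.27-fold without replicate 4). Under stimulation the co-culture change was -0.30 ± 0.35 (edgeR adjusted p = 0.451), 0.18 with library totals in place of TMM factors, and 0.41 ± 0.16 (edgeR adjusted p = 0.0268) without replicate 4. HLA-DMB (ENSG00000242574, chromosome 6, 32934629 to 32941028, minus strand), its beta partner, had 4 counts at rest, 28 at rest with iMSCs, 21 after stimulation and 27 after stimulation with iMSCs. Its M0 libraries held at most 2 counts each and the M0+iMSC libraries at least 4. In a fit with no filter on low counts HLA-DMB rose in co-culture at rest by 2.54 ± 0.68 (edgeR adjusted p = 0.00188) and with stimulation by 2.45 ± 0.71 (edgeR adjusted p = 0.00598). By summed counts the stimulated level was 5.99 times that of M0 (interval 2.02 to 24.02), and 5.22 times (1.64 to 21.8) without replicate 4. Both DM genes overlap a same-strand entry without a symbol, ENSG00000248993, HLA-DMA over 4510 bases and HLA-DMB over 3665. That entry itself held 3 counts in all. How reads shared with it were counted is unknown, and the part of this in the low counts of both DM genes was not tested. HLA-DMA also overlaps BRD2 on the opposite strand over 501 bases, and BRD2 held 146524 counts in all against 1127 for HLA-DMA. Since the use of strand in counting is unknown, reads of both cannot be told apart there. The part of BRD2 reads in the HLA-DMA levels was not tested.

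The effect of co-culture differed between resting and stimulated cells for several members. The difference of the 2 effects, the interaction term of the edgeR fit, was called for 5 of 9 members, all lower, with 31.1% of all tested genes called lower. It was -4.85 ± 0.89 for HLA-DQB1 (edgeR adjusted p = 0.000335), -2.18 ± 0.48 for HLA-DRB1 (0.00146), -2.02 ± 0.60 for HLA-DMA (0.0086), -1.86 ± 0.75 for CD74 (0.047) and -1.46 ± 0.59 for CIITA (0.0406). Without replicate 4 the first 4 of these were called, at -4.07, -1.59, -1.31 and -0.66, and CIITA was not, at -1.33 ± 0.60 (edgeR adjusted p = 0.0576), where 32.2% of tested genes were called lower. The CD74 and CIITA calls also depended on other single libraries. CD74 lost its call when any 1 of the libraries of M0, M0+iMSC or M0+LPS/IFNg+iMSC was left out. CIITA lost its call without M0 replicate 1 or 4, M0+iMSC replicate 1, 3 or 4, M0+LPS/IFNg replicate 1, 3 or 4, or M0+LPS/IFNg+iMSC replicate 1 or 3, so that the count ran from 3 to 5. For HLA-DRA, HLA-DQA1, HLA-DPA1 and HLA-DPB1 the resting counts were too few to compare the effects. The CIITA term rests on few resting counts as well, 14 in all of M0 and 13 in all of M0+iMSC.

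Stimulated co-culture did not return to the resting state. Against M0, 7 of 9 members were higher (9 without replicate 4), with 39.6% of all tested genes called higher (41.1% without replicate 4), and for all 9 every stimulated co-culture lay above every M0 library, as for 39.2% of all tested genes. HLA-DRB1 was 31.1-fold higher (edgeR adjusted p = 4.43e-08), HLA-DQB1 47.5-fold (5.58e-06), CD74 15.5-fold (3.6e-05) and HLA-DMA 6.99-fold (3.67e-05). Within co-culture stimulation raised 8 of 9 members (9 without replicate 4), with 39.3% of all tested genes called higher (41.5%). The rise was 8.73-fold for HLA-DRB1 (edgeR adjusted p = 1.73e-06) and 3.04-fold for HLA-DQB1 (0.00587). HLA-DPA1, with 2 counts in all of M0+iMSC, lost its call there without M0+iMSC replicate 1, 2, 3 or 4 or M0+LPS/IFNg+iMSC replicate 1, 2 or 4. Stimulation alone gave higher levels than co-culture at rest for all 9 members (9 without replicate 4), with 36.7% of all tested genes called higher (37.3%). The closest of these pairs was HLA-DMA, at a log2 change of 1.38 ± 0.38 (edgeR adjusted p = 0.00366), and 0.68 ± 0.18 (edgeR adjusted p = 0.0014) without replicate 4. None of these counts of members is support for a common rise. HLA-DRA, HLA-DPA1, HLA-DPB1, HLA-DQA1 and CIITA passed the filter on low counts through stimulated libraries only.

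Summed over the 9 genes other than CIITA, class II transcripts held 18.3 to 21.1 CPM at rest, 54.3 to 63.4 at rest with iMSCs, 340 to 352 in 3 stimulated libraries and 1831 in replicate 4, and 363 to 464 in stimulated co-cultures. The sum was thus higher in every stimulated co-culture than in those 3 libraries, although CIITA was lower. The make-up of the sum differed between groups as well. As a share of counts per kb of exon, HLA-DRA took 0.418% in M0, 0.209% in M0+iMSC, 19.1% in stimulated libraries without replicate 4 (22.5% with it) and 4.39 ± 0.87% (SD, n = 4) in stimulated co-cultures. HLA-DRB1 took 44.2%, 49.1%, 52.3% (47.2% with replicate 4) and 58.9% in the same order. HLA-DQA1 took 2.32% in stimulated libraries without replicate 4 (2.46% with it) and 0.349% in stimulated co-cultures.

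**Figure D4:**
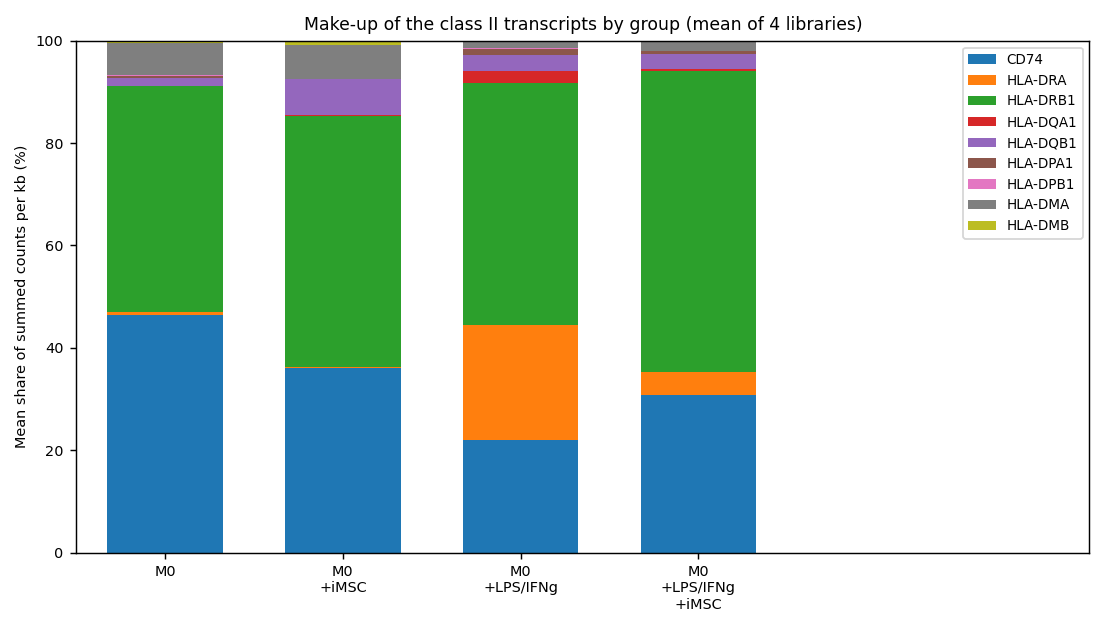
Mean share of each of the 9 class II genes in their summed counts per kb of exon, in percent, for the 4 groups (mean of 4 libraries each, replicate 4 of M0+LPS/IFNg included). HLA-DRB1 and CD74 fill most of every bar, and HLA-DRA takes 22.5% with stimulation alone and 4.39% with stimulation and iMSCs.

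Set against CIITA, the targets also diverged. HLA-DRB1 counts per CIITA count, each per kb of exon, ran from 580 to 1501 in stimulated libraries (to 960 without replicate 4) and from 1856 to 3114 in stimulated co-cultures, without overlap. For HLA-DRA per CIITA the ranges were 215 to 1542 (to 358 without replicate 4) and 120 to 270, which overlapped. The exon length of CIITA in the deposited table, 16061 bases, covers all its annotated exons, so these ratios serve to compare groups and not to rank genes.

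Genes for the proteins that carry CIITA to the X and Y boxes mostly rose where CIITA fell. Of 7 such genes 5 rose and 1 fell in co-culture under stimulation, with a median change of 0.70 on the log2 scale against 0.03 over all tested genes, of which 38.4% were called higher and 36.3% lower. Without replicate 4 the counts were also 5 and 1, with a median of 0.68. RFX5, a subunit of the RFX complex on the X box, held 50.6 ± 12.1 CPM with stimulation (44.5 ± 0.59 without replicate 4) and 116 ± 4.00 in stimulated co-culture (SD, n = 4, or 3 without replicate 4), a rise of 1.19 ± 0.11 (edgeR adjusted p = 4.1e-08; 1.37 without replicate 4). RFXAP, another RFX subunit, rose by 1.35 ± 0.19 (edgeR adjusted p = 4.92e-06; 1.28 without replicate 4) and RFXANK, the third, by 0.71 ± 0.08 (edgeR adjusted p = 5.3e-07; 0.82 without it). NFYC, a subunit of the Y box factor NF-Y, fell by 0.27 ± 0.04 (edgeR adjusted p = 3.3e-05), the same to 2 decimals without replicate 4. At rest 5 of the 7 rose as well and 1 fell, where 36.2% of all tested genes were called higher and 33.6% lower, and RFX5 rose by 0.70 ± 0.11 (edgeR adjusted p = 3.03e-05).

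The genes listed for IFN-γ signalling rose with stimulation, 9 of 9, with 29.1% of all tested genes called higher. In stimulated co-culture 6 fell and 2 rose, with 36.3% of all tested genes called lower and 38.4% higher. These counts were the same without replicate 4. Of the 9, NLRC5 is not upstream of CIITA. It rose with stimulation by 1.69 ± 0.07 (edgeR adjusted p = 1.39e-12; 1.67 without replicate 4) and was not called in co-culture under stimulation. IRF1, which acts on the IFN-γ responsive promoter of CIITA, held 54.8 ± 1.43 CPM at rest and 35.1 ± 1.86 at rest with iMSCs (SD, n = 4). Stimulation brought it to 461 ± 17.6 CPM alone (469 ± 9.86 without replicate 4, n = 3) and 105 ± 13.5 with iMSCs (SD, n = 4). It fell in co-culture both at rest (-0.64 ± 0.07, edgeR adjusted p = 4.29e-07) and under stimulation (-2.14 ± 0.07, edgeR adjusted p = 6.05e-14; -2.17 without replicate 4). Replicate 4 lay slightly below the other 3 for IRF1, at 438 CPM. IRF2, a partner of IRF1 at that promoter, fell under stimulation by 1.24 ± 0.05 (edgeR adjusted p = 1.77e-12), and by 1.20 without replicate 4. The receptor chains IFNGR1 and IFNGR2 rose there, by 1.28 ± 0.10 (edgeR adjusted p = 4.3e-09) and 0.67 ± 0.17 (edgeR adjusted p = 0.00262), and by 1.44 and 0.98 without replicate 4.

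Of 6 genes known to restrain CIITA or class II induction 5 were tested, and 4 of them fell in co-culture at rest and 4 under stimulation, with 33.6% and 36.3% of all tested genes called lower. Without replicate 4 all 6 were tested, and 4 fell at rest and 5 under stimulation, with 35.9% and 37.3% of all tested genes called lower. SOCS3, an inhibitor of cytokine receptor signalling, held 34.5 ± 0.32, 7.18 ± 2.27, 118 ± 18.6 and 52.5 ± 4.35 CPM at rest, at rest with iMSCs, after stimulation and after stimulation with iMSCs (SD, n = 4). Without replicate 4 its stimulated mean was 128 ± 3.20 CPM (SD, n = 3). IL10, a cytokine that dampens antigen presentation, fell under stimulation by 1.82 ± 0.22 (edgeR adjusted p = 6.09e-07), and PRDM1, a repressor of CIITA, by 1.32 ± 0.11 (edgeR adjusted p = 1.75e-08). Without replicate 4 they fell by 1.96 and 1.43.

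**Figure D5:**
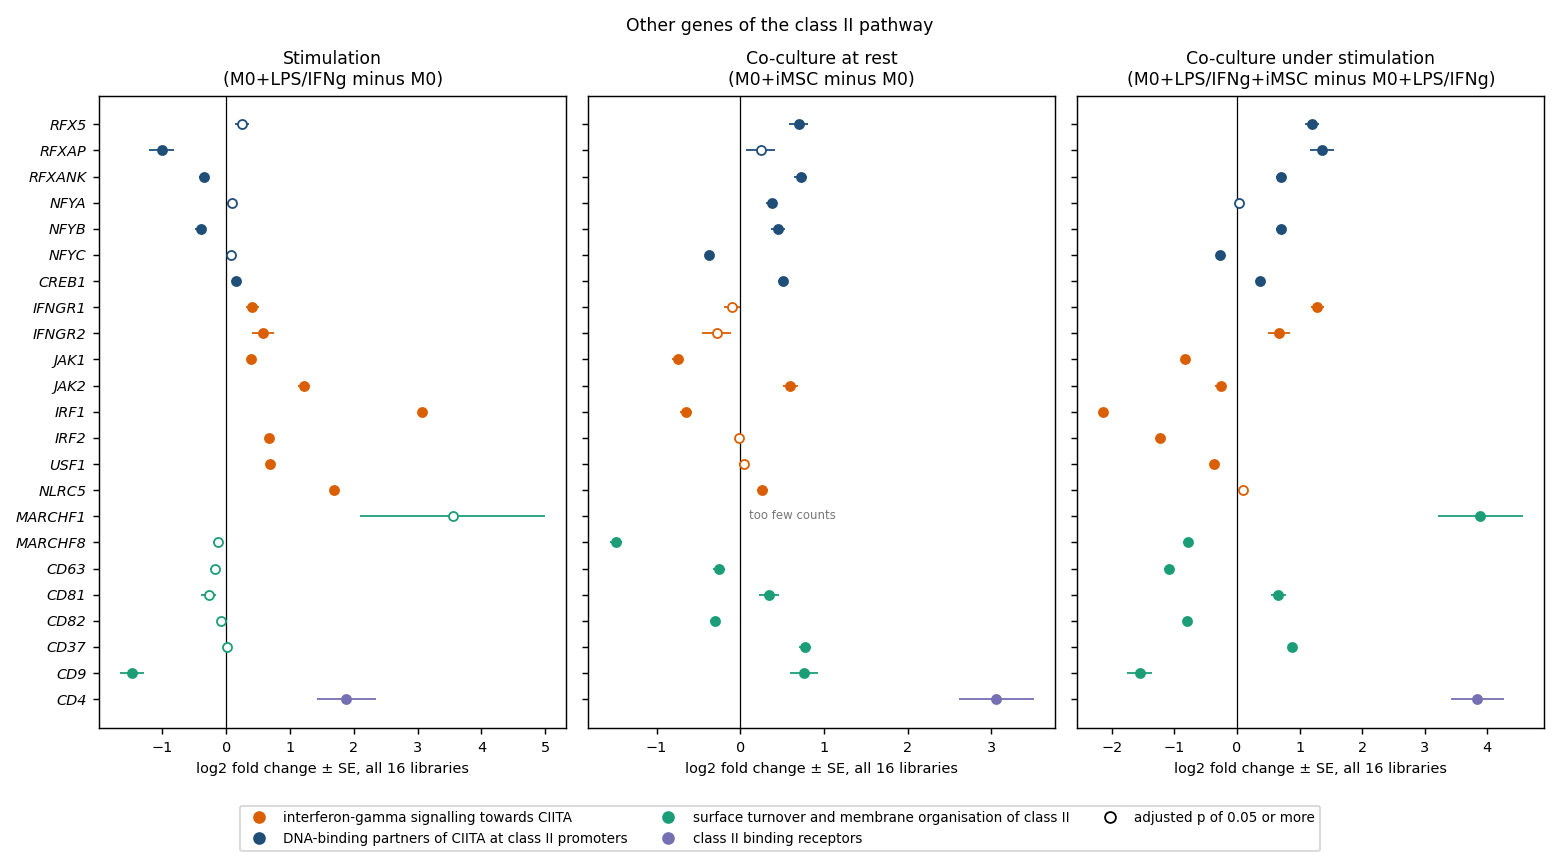
Log2 fold change ± SE, from all 16 libraries, of other genes of the class II pathway in 3 comparisons, coloured by list, with open symbols where the edgeR adjusted p is 0.05 or more. Under stimulation with iMSCs the RFX subunits and the IFN-γ receptor chains lie to the right of 0, IRF1 lies at -2.14, and MARCHF1 and CD4 lie at 3.89 and 3.84; MARCHF1 at rest has too few counts to be drawn.

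Downstream of transcription, the protease and turnover genes moved in both directions. Of 8 endosomal proteases and reductase 7 rose with stimulation (7, and 1 fell, without replicate 4), where 29.1% of all tested genes were called higher. In stimulated co-culture 2 rose and 2 fell (4 and 3 without replicate 4), where 38.4% of all tested genes were called higher and 36.3% lower. CTSS, the protease that trims the invariant chain in antigen-presenting cells, held 464 ± 15.8 CPM in M0, 2370 ± 372 in M0+LPS/IFNg (2186 ± 60.8 without replicate 4) and 1691 ± 79.4 in M0+LPS/IFNg+iMSC, and fell in co-culture under stimulation by 0.49 ± 0.08 (edgeR adjusted p = 4.35e-05; 0.37 without replicate 4). CTSL, a cathepsin with a similar role in thymic epithelium of mice, fell by 2.54 ± 0.17 (edgeR adjusted p = 1.93e-09; by 2.26 without replicate 4). Of 7 genes of surface turnover and membrane organisation, 3 rose and 4 fell there, with and without replicate 4. Of all tested genes 38.4% were called higher and 36.3% lower (40.3% and 37.3% without replicate 4).

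MARCHF1 encodes a membrane ubiquitin ligase that removes class II molecules from the cell surface. It had 6 counts at rest, 2 at rest with iMSCs, 65 after stimulation and 1255 after stimulation with iMSCs, where it reached 13.3 ± 2.98 CPM (SD, n = 4). Replicate 4 held 3.52 CPM, and without it the stimulated mean was 0.07. Its rise in co-culture under stimulation was 3.89 ± 0.68 (edgeR adjusted p = 0.00014), and 7.45 ± 0.38 (edgeR adjusted p = 1.67e-13) without replicate 4. Apart from replicate 4, MARCHF1 reached the cutoff of the filter on low counts in stimulated co-cultures only. The p-values are therefore no support for the rise, and the SE means little over so few counts. MARCHF8, a related ligase, fell by 0.79 ± 0.08 (edgeR adjusted p = 4.1e-08; by 0.70 without replicate 4).

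CD4, known on T cells as the co-receptor for class II and also present on human monocytes and macrophages, rose with stimulation and with co-culture in either state. At rest it held 4.56 ± 0.51 CPM alone and 38.0 ± 5.38 with iMSCs (SD, n = 4). After stimulation it held 17.0 ± 15.7 CPM alone, or 9.15 ± 0.26 without replicate 4, and 242 ± 2.75 with iMSCs. The co-culture change was 3.06 ± 0.45 at rest (edgeR adjusted p = 4.37e-05) and 3.84 ± 0.42 under stimulation (edgeR adjusted p = 2.12e-06), and 4.72 ± 0.09 (edgeR adjusted p = 3.34e-20) under stimulation without replicate 4. CD44, which signals together with CD74 when CD74 acts as a receptor for the cytokine MIF, fell in co-culture under stimulation by 1.29 ± 0.06 (edgeR adjusted p = 7.67e-12; by 1.36 without replicate 4). CXCR4, another partner of CD74 in that role, fell by 1.32 ± 0.18 (edgeR adjusted p = 5.82e-06; by 1.03 without replicate 4). Among the other class II genes, HLA-DQB2 had 0 counts in each group, HLA-DQA2 at most 1 in a group, HLA-DOA at most 5 and HLA-DOB at most 20.

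The genes whose level followed CIITA most closely over the 16 libraries, by Pearson correlation of log2 CPM among 8731 well-detected genes, were P4HB (r = 0.98), GLO1 (0.98), PSMB10 (0.97), CXCL10 (0.97) and IDO1 (0.97). CXCL10 and IDO1 share the drop in stimulated co-culture, from 261 to 16.1 CPM and from 424 to 12.8 CPM on average, with 324 and 196 CPM in replicate 4. Those that followed HLA-DRA were FCER1G (0.99), B2M (0.99), DTX3L (0.99), CTSS (0.99) and TRPS1 (0.98). The libraries fall into 4 groups that set these values, so they are given as a description. Without replicate 4 the r of the same genes ran from 0.97 to 0.98 for CIITA and from 0.98 to 0.99 for HLA-DRA.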

How the data were processed

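Per the labels, TRIzol RNA and the VAHTS Universal V6 kit gave the 16 libraries. The authors deposited raw whole-number counts per gene, and the annotation is GRCh38.p13 per the file headers. HISAT2, HTSeq and GRCh38 are named without roles or versions, per the submitters' processing notes. No source used here gives the handling of shared, ambiguous or antisense reads. Groups came from the sample titles and treatments. All 4 groups entered 1 edgeR 4.0.16 quasi-likelihood fit (R 4.3.3, robust) with TMM factors, filterByExpr and no block, leaving 12 residual degrees of freedom. The SE is the absolute log2 change over the square root of F, and means little for genes with a few counts. The labels do not say whether replicate numbers pair the libraries, and no pairing was used in this fit. Without M0+LPS/IFNg replicate 4, 15599 genes were tested. Alternatives were other scaling, DESeq2 1.42.0, limma-voom (limma 3.58.1), other filters, only the groups compared, a replicate block and left-out libraries. The contrast of M0+LPS/IFNg minus M0+iMSC and the within-library ratios were added after seeing the data. The 10 genes and all lists were chosen with earlier results of these data known. The genes named are the 10, members of the lists, and the 5 with the largest r to CIITA and to HLA-DRA among 8731 well-detected genes. The fit was tested on simulated data. Every pair of replicates differed by more than sampling noise. Figures used matplotlib 3.10.9. Of the IFN-γ signalling genes, 1 is counted with its list and not reported here on its own.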

Additional observations from a re-analysis of the deposited data

Results flagged for a closer look

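In 9 of 36 sets of 4 libraries, 1 value stood outside the spread of the other 3 by Dixon's criterion, which chance alone gives in about 1 of 20 sets. Of these, 8 were replicate 4 of M0+LPS/IFNg, with HLA-DRA at 424 CPM, HLA-DRB1 at 411, HLA-DPA1 at 41.7, HLA-DPB1 at 13.8, HLA-DQA1 at 47.4, HLA-DQB1 at 45.7, HLA-DMA at 12.8 and CD74 at 835. In that library macrophage markers summed to 2344 CPM, against 1142 to 1257 in the other 3, and the part of this in the class II levels was not tested. The ninth was HLA-DQB1 at 15.7 CPM in replicate 4 of M0+LPS/IFNg+iMSC.

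The effect of co-culture under stimulation differed from that at rest, by the interaction term of the edgeR fit, for HLA-DRB1 (-2.18 on the log2 scale), HLA-DQB1 (-4.85), HLA-DMA (-2.02), CD74 (-1.86) and CIITA (-1.46), the last of which was not called without replicate 4 of M0+LPS/IFNg.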

How the results depend on the processing

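Left-out libraries kept direction and call in 811 of 864 member changes, and other settings in 508 of 548. Over single left-out libraries the co-culture change under stimulation ran from -0.51 to 0.24 for HLA-DRB1, -0.52 to 0.41 for HLA-DMA and -0.80 to 0.65 for CD74, and the interaction of HLA-DPA1 from -2.05 to 0.99, each above 0 without M0+LPS/IFNg replicate 4 alone. Library totals without factors turned the first 2 to 0.13 and 0.18 and HLA-DQA1 at rest to 0.020. They moved the median of all genes to -0.25 (stimulation), 0.17 (co-culture at rest), 0.50 (co-culture under stimulation), 0.12 (stimulation within co-culture), 0.24 (stimulated co-culture minus M0) and 0.35 (interaction). Calls under stimulation with iMSCs then split into 9020 higher and 3066 lower genes, against 5876 and 5555 with TMM, and with stimulation into 2520 and 6938 against 4451 and 4328. In co-culture at rest, stimulation within co-culture and the interaction the splits were 6541 and 4093 against 5544 and 5137, 6534 and 4876 against 6010 and 5372, and 7029 and 3108 against 4752 and 4754, and for stimulated co-culture minus M0 7391 and 4437 against 6061 and 5779.

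At rest, where counts were few, the fitted change ran from -0.68 to 0.96 for HLA-DRA and from -1.61 to 1.53 for HLA-DQA1. Without M0+iMSC replicates 1 and 2 it was -1.02 for HLA-DRA and 0.14 for CIITA, and without replicates 3 and 4 it was 0.74 for HLA-DQA1. DESeq2 called 5 members higher with stimulation, 2 lower in co-culture under stimulation and 5 higher for stimulation within co-culture, and gave no adjusted p for 4 of 9 members, which are not lost calls. Leaving out M0+iMSC replicates 1 and 2, or 3 and 4, left 4 and 5 members higher for stimulation within co-culture, and the second left 3 lower in the interaction, as did library totals. Over single left-out libraries the count of members higher in co-culture under stimulation ran from 0 to 3, and lower in the interaction from 3 to 5. The replicate block called 9, 4, 9 and 9 members higher (stimulation, co-culture at rest, stimulation within co-culture, stimulated co-culture minus M0), and 6 and 4 lower (co-culture under stimulation, interaction). The counts of members in this paragraph stand without the share of all tested genes called under the same setting. They describe how far calls held, and are not results about the members. Little shared shift of same-numbered libraries was seen, with 1 of 24 same-number correlations over 0.1 (r from -0.11 to 0.17). Such correlations cannot show whether the numbers pair the samples, which the labels do not say. The causes of these changes were not tested. Low counts limit what the resting groups show for CIITA, HLA-DRA, HLA-DQA1, HLA-DPA1, HLA-DPB1 and HLA-DMB.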
